A study of Glycine max with 48 samples.

Results

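The ovary of soybean (Glycine max, cultivar Magellan) was compared between plants under combined heat and water deficit and control plants. The comparison rests on 6 of the 48 libraries of the study, 3 from ovaries under combined stress and 3 from control ovaries, chosen by their column names and labels. Control plants had days of 28 °C, nights of 24 °C and 100% of the water they could transpire. Plants under combined stress had days of 38 °C, nights of 28 °C and 30% of that water. Ovaries under water deficit alone (28 and 24 °C, 30% water) and under heat alone (38 and 28 °C, 100% water), again 3 libraries each, are given beside them. All plants had grown for 16 to 18 days at the control temperatures, to their first open flower, before they were divided at random among the treatments. Each library pooled the ovaries of 10 to 15 flowers from 8 to 10 plants. A total of 4 growth chambers was used, and the labels do not place the treatments in them, so chamber and treatment cannot be told apart if each treatment had its own.

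The ovary is the part of the pistil that encloses the ovules, and after fertilisation it becomes the pod. Flowering is a stage at which heat and drought are known to cut seed set in grain legumes. In plants generally, high temperature activates heat shock transcription factors, which raise the expression of chaperone genes, and drought acts largely through the hormone abscisic acid. The deposited files give identifiers without gene names, and 0 of 57147 identifiers matched the reference gene table, so no gene is given a name or a function here. The digits before the G in a soybean identifier are the number of its chromosome, and those after it number the genes along that chromosome.

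Levels are in FPKM, which is fragments scaled to the length of the gene and to the total of the library. A log2 fold change is a difference between group means of log2(FPKM + 1), so it understates the change of genes at low levels. SE is the standard error of that difference in limma, and a gene was called higher or lower when limma's adjusted p was under 0.05. Between 30513 and 31295 genes reached 1 FPKM in each ovary library. Absolute depth is unknown, and the commonest ratio between libraries of values under 1 FPKM put the deepest of the 6 libraries at 1.46 times the shallowest. The libraries summed to 631528 ± 8470 FPKM (SD, n = 3) in control and 599281 ± 8878 under combined stress, without overlap (exact two-sided permutation p = 0.1, the smallest that 3 against 3 can give). Of 19807 genes with a mean of at least 5 FPKM over the 6 libraries, 199 were at exactly 0 in at least 1 library, so a 0 is described as listed at 0. The identity of the organ could not be checked with named marker genes. Across genes, the control ovary levels correlated at 0.913 with those of the control stigma, 0.742 with the sepal and 0.465 with the anther.

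Combined stress raised 3652 genes and lowered 5502 of the 33336 genes tested in the ovary, which is 11% and 16.5% of them and 27.5% together. Most of these changes were small. The genes called higher had a median log2 fold change of 0.56 (quartiles 0.43 and 0.76), and those called lower had a median of -0.61 (quartiles -0.84 and -0.45). A change of more than 1 on the log2 scale was reached by 418 of the genes called higher and 906 of those called lower. Beyond 3 on the log2 scale 41 genes were higher and 24 lower, and beyond 5 there were 18 and 3. Which direction was the more frequent beyond 3 depended on the pseudocount, with 78 higher and 196 lower when 0.1 was added in place of 1, and 26 and 5 when 5 was added. Without control replicate 2 the numbers were 41 and 40. The median over all genes tested was -0.02.

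The balance between rises and falls depended on the scale. The genes called higher made up 39.9% of all calls on the deposited FPKM and 46.2% after median-of-ratios rescaling (4334 higher, 5037 lower). They made up 51.7% when each library was rescaled to the same sum (4825 higher, 4506 lower). Without a replicate, the number of calls fell to between 6960 and 7618, and it was lowest without control replicate 1.

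Falls were more frequent among highly expressed genes. Of genes with a mean under 2 FPKM over the 12 ovary libraries, 5.73% were higher and 6.41% lower. The share called lower was larger in each class of higher level, with 20% from 10 to 20 FPKM, 30.6% from 20 to 50, 38.7% from 50 to 100 and 46.4% at 100 FPKM and over. The share called higher stayed between 11.9% and 14.6% in every class from 5 FPKM up. After median-of-ratios rescaling, 14.6% of the genes at 100 FPKM and over were higher and 43.1% lower. Among the 100 most abundant genes, 19 were higher and 39 lower. The 50 most abundant genes of each library nevertheless held a larger share of summed FPKM under combined stress, 14.8% ± 0.656 against 11.7% ± 0.572 in control (SD, n = 3), with no overlap between the groups (exact two-sided permutation p = 0.1).

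**Figure D1:**
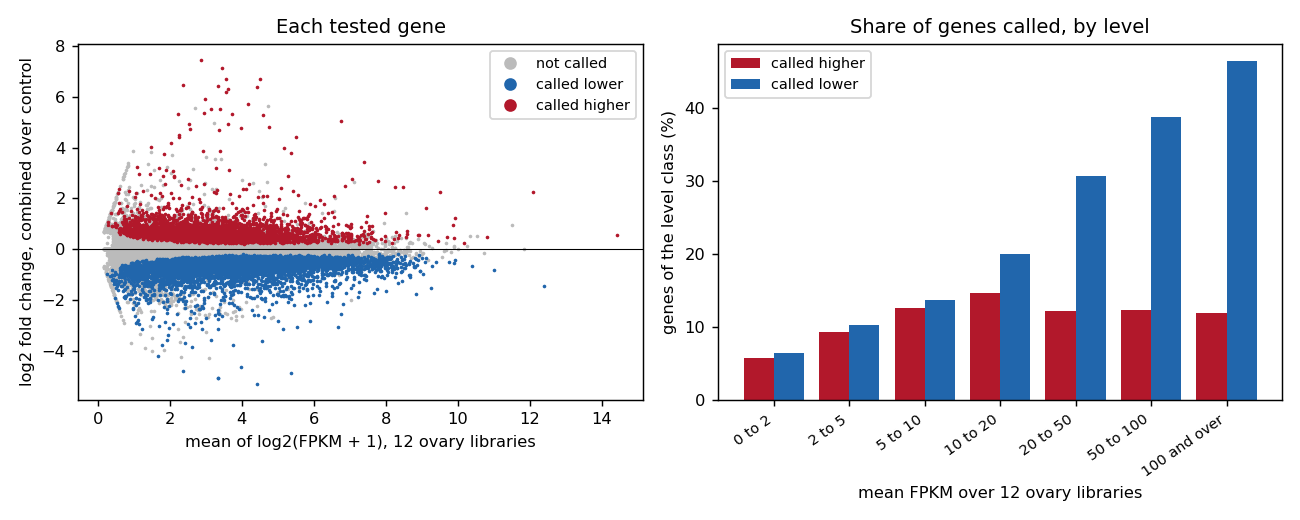
The left panel plots the log2 fold change of combined stress over control against the mean level of each of the 33336 tested ovary genes, coloured by call. The right panel gives the percentage of genes called higher and lower in 7 classes of mean FPKM, where the share called lower is 6.41% in the lowest class and 46.4% in the highest.

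A few genes accounted for much of the abundant RNA, and they moved in different directions. The following 3 genes were chosen after their values were seen, for the largest rise and the largest fall in mean FPKM and for an adjacent identifier. GLYMA_07G014500, which led all genes in mean level, stood at 15279, 20068 and 15559 FPKM in control ovaries and at 26133, 21871 and 25923 under combined stress. It took 2.69% ± 0.419 of summed FPKM in control and 4.12% ± 0.433 under combined stress (SD, n = 3; log2 change 0.54, SE 0.13, adjusted p = 0.00852 in limma). Its share under heat alone was higher still, at 5.21% ± 0.369, and the difference between combined stress and heat did not pass the threshold (log2 change -0.36, SE 0.13, adjusted p = 0.241 in limma).

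GLYMA_08G200000 and GLYMA_08G200100 carry adjacent identifiers, and they moved in opposite directions. GLYMA_08G200000 stood at 7855, 9512 and 7677 FPKM in control and at 3123, 2659 and 3257 under combined stress (log2 change -1.47, SE 0.12, adjusted p = 1.06e-05 in limma). GLYMA_08G200100 stood at 1702, 2313 and 1898 FPKM in control and at 10548, 8299 and 9418 under combined stress (log2 change 2.26, SE 0.14, adjusted p = 2.54e-06 in limma). The groups did not overlap for either gene, and the gene with the lower level in control had the higher level under combined stress. Their summed level was 10319 ± 1304 FPKM in control and 12435 ± 1372 under combined stress, and those groups overlapped.

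The single stresses gave the following values. GLYMA_08G200100 was at 7980 ± 670 FPKM under heat and 2511 ± 399 under water deficit, and only the former passed the threshold against control (limma adjusted p = 2.92e-05 and 0.553). GLYMA_08G200000 was at 6061 ± 749 FPKM under heat and 5504 ± 501 under water deficit, and it was lower under combined stress than under either (limma adjusted p = 0.00342 and 0.000577). In separate libraries of the stigma, GLYMA_08G200000 fell by 2.35 on the log2 scale (SE 0.28, limma adjusted p = 0.00029) and GLYMA_08G200100 rose by 2.01 (SE 0.14, limma adjusted p = 1.14e-05). If the sequences of the neighbours are nearly identical, the authors' counting could have divided shared reads between them, and their separate values are uncertain to that extent.

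**Figure D2:**
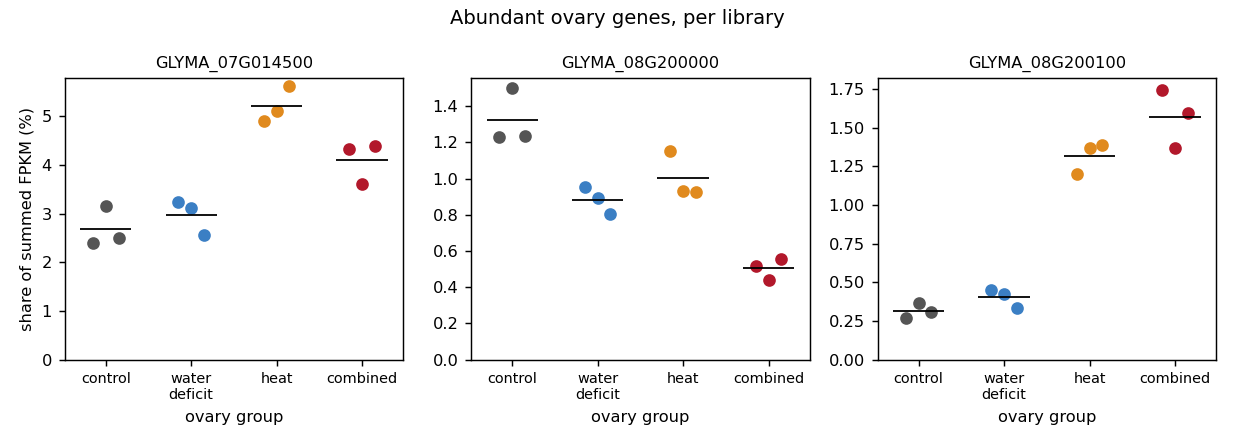
Share of summed FPKM (%) of 3 abundant genes in each of the 12 ovary libraries, by group, with points for libraries and bars for group means. Under combined stress GLYMA_08G200000 lies below, and GLYMA_08G200100 above, all 3 control libraries.

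Of the 2826 genes called higher with a mean of at least 5 FPKM and no overlap between the groups, GLYMA_14G063700 had the largest log2 fold change. It was at 0.0938 FPKM in control replicate 1 and listed at 0 in the other control libraries, and it reached 135, 183 and 228 FPKM under combined stress (log2 change 7.44, SE 0.23, adjusted p = 8.47e-09 in limma). It was listed at 0 in all 3 libraries under water deficit and stood at 21.3, 10.6 and 11.5 FPKM under heat. Every combined-stress library lay above every heat library (log2 change 3.60, SE 0.23, adjusted p = 2.73e-05 in limma).

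GLYMA_10G176400 came next. It was at 0.329, 0.181 and 0.577 FPKM in control and at 114, 156 and 371 FPKM under combined stress (log2 change 7.12, SE 0.43, adjusted p = 8.51e-06 in limma). Heat alone gave 68.3, 30.5 and 27.6 FPKM, and water deficit gave 0.322, 0.576 and 0.292 FPKM. All combined-stress libraries lay above the heat libraries, but this difference missed the threshold (log2 change 2.25, SE 0.43, adjusted p = 0.0546 in limma).

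Among the 4598 genes called lower by the same criteria, GLYMA_15G119200 had the largest fall. It was at 172, 69.0 and 178 FPKM in control and at 1.80, 1.91 and 3.41 FPKM under combined stress (log2 change -5.29, SE 0.38, adjusted p = 1.93e-05 in limma). Unlike the rising genes, it was low under each single stress, at 17.9, 12.2 and 9.22 FPKM under water deficit and 27.3, 40.9 and 39.5 FPKM under heat. The 4 groups did not overlap, and the level fell from control through heat and water deficit to combined stress.

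GLYMA_08G068900 was at 81.7, 37.8 and 105 FPKM in control. Under combined stress replicates 1 and 2 were listed at 0 and replicate 3 at 7.79 FPKM (log2 change -5.08, SE 0.80, adjusted p = 0.00207 in limma). It stood at 7.98, 9.46 and 4.74 FPKM under water deficit and 7.82, 10.1 and 6.63 FPKM under heat, all far below the control libraries. The adjacent identifier GLYMA_08G068800, chosen after its values were seen, moved the other way, from 0.672, 0.0722 and 0.229 FPKM in control to 57.9, 122 and 339 FPKM under combined stress (log2 change 6.70, SE 0.70, adjusted p = 0.000239 in limma).

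**Figure D3:**
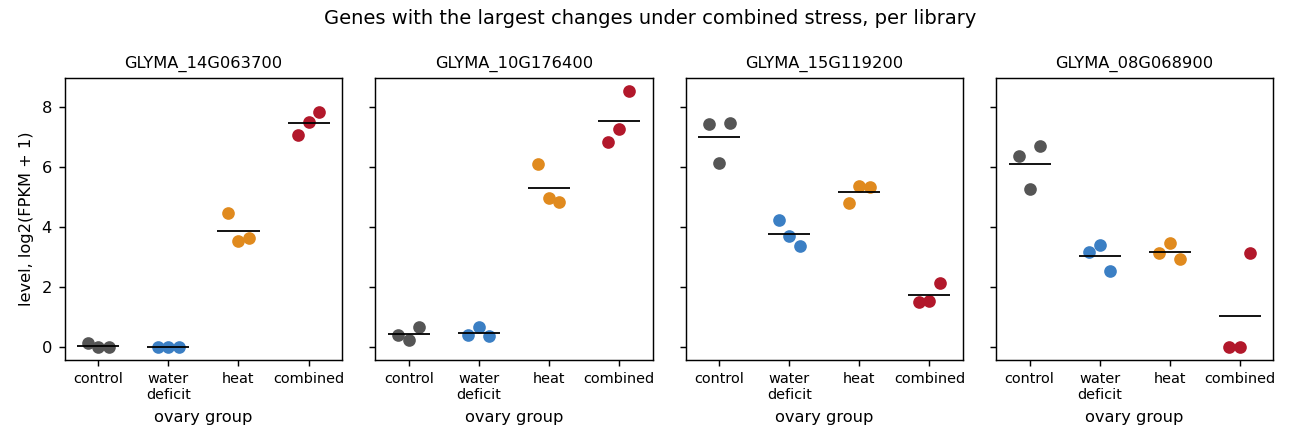
Level as log2(FPKM + 1) of the 2 genes with the largest rise and the 2 with the largest fall in each of the 12 ovary libraries, with points for libraries and bars for group means. The rising genes are near 0 in control and water deficit and highest under combined stress, and the falling genes are highest in control.

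The 41 genes that rose and the 24 that fell by more than 3 on the log2 scale are described as sets that were defined after the values were seen. The median level of the 41 genes was 0.907 FPKM in the control group and 1.48 with water deficit, but 25.4 with heat and 80.01 with both. In control 21 of them were under 1 FPKM, and under combined stress all 41 were over 10 FPKM. The 24 falling genes had a median of 29.4 FPKM in the control group, 8.12 with water deficit, 6.88 with heat and 1.26 with both. By library, the median of the rising set was 0.672, 0.867 and 0.893 FPKM in control and 0.588, 2.33 and 1.92 FPKM with water deficit. Of the 41 genes, 2 were over 10 FPKM in the control group and 6 with water deficit. The difference between these medians was not tested.

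The libraries of the combined group were not equal for the rising set. Its median level was 43.2 FPKM in replicate 1, 87.9 in replicate 2 and 113 in replicate 3. Replicate 3 was the highest of the 3 for 40 of the 41 genes, and the ratio of the highest to the lowest library had a median of 4.63. Every one of the 41 genes was higher in all combined-stress libraries than in any control library, but these same values had chosen the genes. On the second principal component of the 12 ovary libraries (9.89% of the variance) replicate 3 stood at 27.5 and replicates 1 and 2 at -35.7 and -26.9. The first component (32.3%) placed the controls between -53.2 and -37.7 and the combined-stress libraries between 49.0 and 62.1. Without replicate 3, 39 genes were called higher with a change over 3, without replicate 1 it was 55, and the genes called numbered 7572 and 7618.

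Members of the strongly changed sets often had identifiers near each other. Another member of the same set lay within 10 identifiers for 13 of the 41 rising genes (31.7%) and for 4 of the 22 falling genes with a numbered chromosome identifier (18.2%). Of all tested genes, 1.25% and 0.74% lay that close to a member of these sets. GLYMA_15G119500, the gene with the second largest fall from heat to combined stress, lies near GLYMA_15G119200. It went from 82.9, 28.5 and 84.1 FPKM in control to 0.909, 0.883 and 0.581 FPKM under combined stress (log2 change -5.06, SE 0.50, adjusted p = 0.000135 in limma). Neighbours that are near-identical copies could share reads, which was not tested. Over all calls, 25.2% of genes called higher had a directly neighbouring tested gene called higher, against 20.8% of all tested genes. For genes called lower the shares were 33.9% and 30.5%. By chromosome, the share called higher ranged from 9.82% to 12.5% and the share called lower from 14.6% to 17.8%.

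What water deficit added to heat was read from combined stress against heat. In the ovary 74 genes were higher and 189 lower under combined stress than under heat, which is 0.222% and 0.567% of the genes tested and 0.789% together. Against water deficit the numbers were 2763 and 4331 (8.29% and 13%, together 21.3%). These contrasts and the comparison with control share the combined-stress libraries. The single stresses against the same controls gave 1998 higher and 3612 lower under heat (5.99% and 10.8%, together 16.8%) and 23 higher and 55 lower under water deficit (0.069% and 0.165%, together 0.234%). The genes called higher under combined stress had median log2 fold changes of 0.38 under heat and 0.10 under water deficit. The genes called lower had -0.44 and -0.12. Over all genes tested the medians were -0.0133 and -0.0029. The called genes were chosen against the same control libraries that enter the single-stress changes. That choice can by itself move these medians in the called direction. Of the genes with the largest falls from water deficit to combined stress, GLYMA_15G112700 went from 29.4, 87.8 and 80.6 to 6.62, 2.49 and 6.63 FPKM (log2 change -3.36, SE 0.84, adjusted p = 0.0236 in limma). GLYMA_05G118900 went from 7.60, 12.7 and 8.10 FPKM to being listed at 0 in all 3 libraries, and it was listed at 0 under heat too.

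The interaction term asked whether the response to combined stress differed from the sum of the single responses on the log2 scale. It was called for 5 of 33336 genes (0.015%), 3 above the sum (0.009%) and 2 below it (0.006%), and 2309 genes had an unadjusted p under 0.05. With no interaction at any gene, a share of about 0.05 of the genes tested would be expected there. The interaction also has a larger SE than the comparison with control (0.32 against 0.23 for GLYMA_14G063700). Few calls therefore do not show that the other genes responded by the sum. The calls numbered 8 without control replicate 1 and 10 without combined replicate 1, and those below the sum 1 to 5 when any 1 of the 6 libraries was left out. GLYMA_14G063700 exceeded the sum by 3.64 (SE 0.32, limma adjusted p = 0.0013). For GLYMA_04G229800 all control and water deficit libraries were listed at 0, and it stood at 9.01, 7.30 and 4.81 FPKM under heat and 59.9, 96.6 and 112 FPKM under combined stress (interaction 3.48, SE 0.31, limma adjusted p = 0.0013). The third was GLYMA_14G063800, the identifier next to GLYMA_14G063700, which was named after its values were seen. It went from 0.663, 0.904 and 0.763 FPKM in control to 17.6, 19.5 and 15.2 under heat and 122, 167 and 168 under combined stress (interaction 2.83, SE 0.25, limma adjusted p = 0.0013). These 3 genes were low or listed at 0 in control, where a fall under water deficit can hardly be seen. Their log2 changes under water deficit were -0.04, 0 and 0.22. The interaction was therefore close to the difference between combined stress and heat, which was 3.60, 3.48 and 3.05.

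The genes below the sum had another shape. GLYMA_05G202700 was at 3.93, 1.19 and 2.54 FPKM in control and higher under heat, at 4.36, 5.21 and 6.20 FPKM. Under combined stress it was at 0.492, 0.314 and 0.221 FPKM, below every other ovary library (interaction -2.70, SE 0.35, limma adjusted p = 0.0313). This call was lost in 4 of 9 alternatives (adjusted p up to 0.122). GLYMA_14G096600 rose under each stress, from 4.37, 3.77 and 3.37 FPKM in control to 10.7, 9.32 and 9.70 under water deficit and 10.8, 10.9 and 13.9 under heat. Under combined stress it was at 9.11, 8.29 and 8.08 FPKM, below every library of either stress alone (interaction -1.61, SE 0.17, limma adjusted p = 0.00416).

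Separate libraries of the other flower organs show how far the ovary response was shared. The shares of tested genes called higher and lower under combined stress were 7.19% and 16.9% for sepals, 51.8% and 10.7% for anthers and 11.1% and 14.9% for stigmas. Of the genes called higher in the ovary and tested in the stigma, 56.6% were higher in the stigma, where 11.5% of all genes tested in both organs were, and they made up 55.1% of the stigma's higher calls. Of the genes called lower in the ovary, 58.1% were lower in the stigma, against 14.4% of all, which is 69.2% of the stigma's lower calls. Calls in opposite directions numbered 1 and 9. Across genes, the log2 fold changes of ovary and stigma correlated at 0.714.

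The sepal and the anther were further from the ovary. In the sepal 25.8% of the ovary's higher genes were higher (43.7% of the sepal's higher calls, against 6.76% of all genes) and 48.9% of its lower genes were lower (47.5% of the sepal's lower calls, against 17.4%). In the anther, where most called genes rose, 73.3% of the ovary's higher genes were higher (16.4% of the anther's higher calls, against 54.1% of all). The ovary's lower genes were lower there in 12.2% of cases (25.2% of the anther's lower calls, against 8.47%), while 1795 were higher. The correlations across genes were 0.545 with the sepal and 0.392 with the anther.

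**Figure D4:**
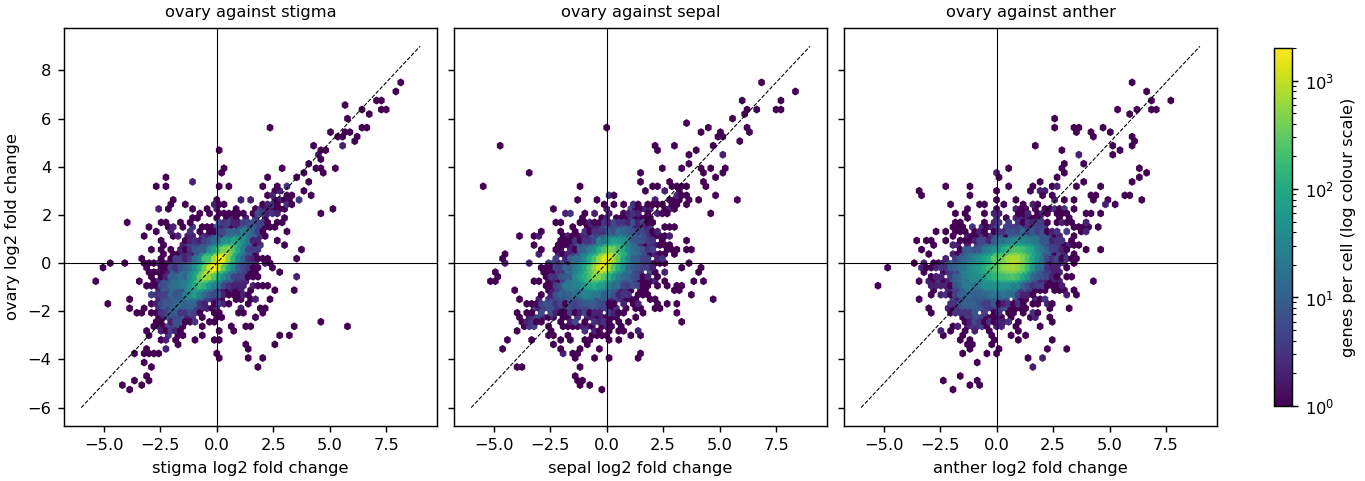
Log2 fold change of combined stress over control in the ovary (vertical axis) against that in the stigma, sepal and anther (horizontal axes) for genes tested in both organs, with colour for the number of genes on a log scale and a dashed line of equality. The cloud follows the line most closely for the stigma, with a correlation of 0.714, against 0.545 for the sepal and 0.392 for the anther.

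Most of the strongest rises, and many of the strongest falls, were also called in the other organs. Of the 41 rising ovary genes, the sepal called 39 of 40 tested higher, the anther 39 of 40 and the stigma 40 of 41, with median log2 fold changes of 4.81, 4.67 and 5.12. Of all genes tested, 7.19% were higher in the sepal, 51.8% in the anther and 11.1% in the stigma. Of the 24 falling genes, the sepal called 15 of 24 tested lower, the anther 8 of 18 and the stigma 21 of 24, with medians of -1.16, -1.12 and -2.60. In addition, 1 of them was called higher in the anther. The share of all tested genes called lower was 16.9% in the sepal, 10.7% in the anther and 14.9% in the stigma.

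**Figure D5:**
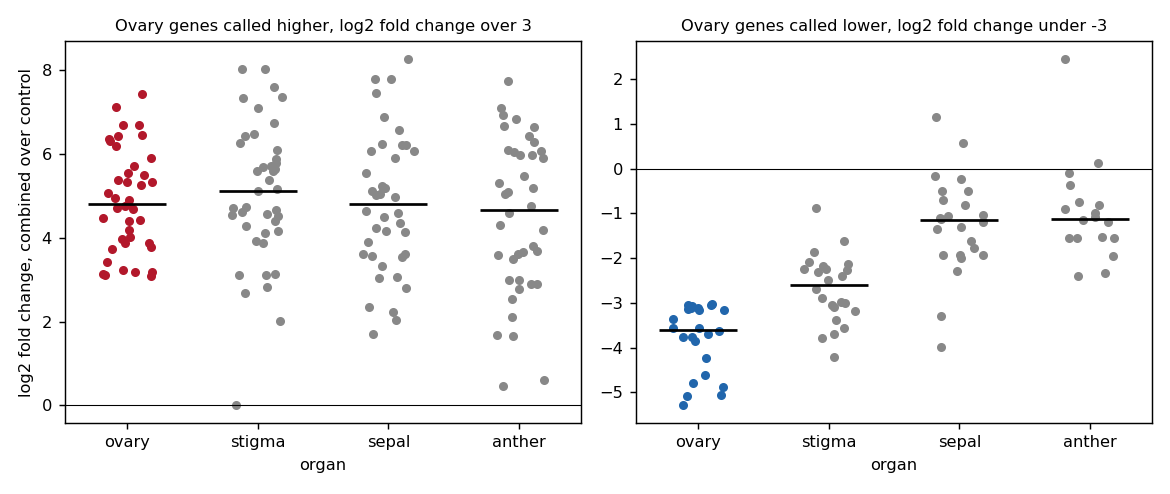
Log2 fold change of combined stress over control in 4 organs for the 41 genes that rose (left) and the 24 that fell (right) by more than 3 on the log2 scale in the ovary, with points for genes and bars for medians. The ovary values chose the genes, and the other organs are separate libraries, where the rising set has medians of 4.67 to 5.12 and the falling set -2.60 to -1.12.

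The difference between organs was tested directly, as the ovary response minus that of another organ. Against the stigma 16 genes responded more positively in the ovary and 35 more negatively (0.0455% and 0.0995% of 35167 tested). These 51 calls became 26 without control replicate 1, 29 without control replicate 3 or combined replicate 2, and 60 without combined replicate 3. Against the sepal the numbers were 1729 and 1236 (4.72% and 3.38% of 36598), and against the anther 2114 and 13698 (5.84% and 37.8% of 36229). The balance of directions depended on the scale, since median-of-ratios rescaling gave 1319 and 1650 against the sepal and 4597 and 4415 against the anther. GLYMA_15G119200 fell more in the ovary than in the sepal, where it was at 6.22, 5.76 and 7.39 FPKM in control and 8.64, 3.54 and 5.57 under combined stress (difference -5.12, SE 0.50, limma adjusted p = 7.76e-06). From that sepal level a fall as large as the ovary's was not possible on this scale. GLYMA_14G063700 rose more in the ovary than in the anther (difference 1.46, SE 0.43, limma adjusted p = 0.00996). Neither of these genes differed from the stigma by this test (limma adjusted p = 0.393 for GLYMA_15G119200 and 0.724 for GLYMA_14G063700). In the stigma GLYMA_15G119200 changed by -3.79 (SE 0.39) and GLYMA_14G063700 by 8.04 (SE 0.34).

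Few genes responded differently in the ovary from all 3 other organs, 1 in the positive and 7 in the negative direction of 33844 tested against each. Of the 7, 4 were called lower in the ovary itself. Such genes can be no more than the 51 called against the stigma, which became 26 to 60 when a library was left out. The gene in the positive direction, GLYMA_16G018900, was named after its values were seen. It rose in the ovary from 6.03, 6.43 and 9.38 FPKM to 17.2, 18.0 and 15.6 FPKM (log2 change 1.14, SE 0.18, adjusted p = 0.000715 in limma). It fell in the sepal from 38.8, 37.2 and 22.3 to 21.1, 17.2 and 17.1 FPKM and was at 9.17, 7.40 and 9.23 against 6.80, 6.64 and 7.49 FPKM in the stigma. The differences from the sepal and stigma responses were 1.90 (SE 0.28) and 1.40 (SE 0.22), with limma adjusted p = 0.000212 and 0.00954. The anther held under 0.2 FPKM in all control and combined-stress libraries, so the difference from its response (1.09, SE 0.32) rests on the ovary's rise. Among the 7 others, GLYMA_03G040400 was listed at 0 in all control ovaries and stood at 0.0576, 0 and 0.538 FPKM under combined stress. In the stigma it went from 3.97, 2.46 and 1.90 FPKM to 59.3, 39.1 and 55.3 (difference -3.57, SE 0.61, limma adjusted p = 0.0185), and this call was lost in 4 of 9 alternatives.

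Genes enriched in another organ were taken from control libraries of the sepal, anther and stigma, with at least 5 FPKM and 8-fold over the other 2 organs. The ovary libraries did not enter that choice, and 405 of the 434 stigma-enriched genes passed the filter on low values in the ovary. A change of such genes therefore does not show whether material of that organ varied between the groups. In such pooled tissue, fewer cells of a type and less RNA per cell cannot be told apart. Of 405 tested stigma-enriched genes, 23 were higher and 178 lower in the ovary under combined stress (5.68% and 44%, against 11% and 16.5% of all genes), with a median log2 fold change of -0.46. The share lower exceeded that of all genes at each level, from 30% against 8.64% under 5 FPKM to 55% against 46.4% at 100 FPKM and over. Their share of summed FPKM was 4.94% ± 0.217 in control and 4.96% ± 0.0797 under combined stress (SD, n = 3; exact two-sided permutation p = 1).

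Of 1719 anther-enriched genes, 796 were tested, with a median of -0.48. The calls were 27 higher and 60 lower (3.39% and 7.54%, against 11% and 16.5% of all genes). Of the 796, 661 had a mean under 5 FPKM, where 7.41% were lower against 8.64% of all genes. From 5 to 20 FPKM the shares lower were 9.4% and 16.5%. A gene could pass the filter on low values through its control group alone, which can make the median more negative. The number lower was 31 without control replicate 3 and 228 when the 6 libraries were fitted alone. The share of the anther-enriched genes ranged from 0.354% to 0.651% of summed FPKM in the control ovaries and from 0.394% to 0.405% under combined stress (exact two-sided permutation p = 0.5). Of 490 tested sepal-enriched genes, 61 were higher and 51 lower (12.4% and 10.4%, against 11% and 16.5% of all genes), with a median of 0.04. Of the 490, 375 had a mean under 5 FPKM, where 8.8% were lower against 8.64% of all genes. From 5 to 20 FPKM these shares were 14.1% and 16.5%. The share of the sepal-enriched genes in summed FPKM was 0.400% ± 0.0181 in control and 0.458% ± 0.0473 under combined stress (SD, n = 3; exact two-sided permutation p = 0.2). The part of these genes in the other results was not tested.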

How the data were processed

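RNA was sequenced as paired reads of 150 bases from 48 libraries of 4 flower organs. The authors deposited FPKM values per organ; reads were aligned with HISAT2 2.2.1, per the submitters' processing notes. For the counting tool, build and annotation, nothing is given in the sources used here. The ovary file held 55897 GLYMA_ and 1250 ENSRNA identifiers. Of its FPKM values, 1753 lay above 0 but under 1e-06, so they are not whole-read steps, and no count test was run.

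The 12 ovary libraries were fitted in 1 model with limma 3.58.1 in R 4.3.3 on log2(FPKM + 1), using the trend and robust options of its moderation. Genes with a mean of at least 1 FPKM in 1 of 4 groups were tested two-sided with Benjamini-Hochberg adjustment over all of them. Differences between organs used 24 libraries. The script was checked on simulated data. Named genes passed an adjusted p of 0.05, reached 5 FPKM in the higher group and had no overlap between groups (for the interaction and organ differences, the p and the level alone), with the 2 largest changes per direction taken. Members and lists were chosen with earlier results of these data known. Gene lists by function could not be built without names. Alternatives varied the pseudocount, filter, scaling, moderation, libraries and replicate block. The labels number the replicates but do not say what a number shares, so the block is an alternative alone. It joined libraries within an organ only. Whether libraries of different organs with the same treatment and replicate number came from the same plants was not checked. The fits of 24 libraries treated them as independent. Separate pools of plants are described per library, but a shared chamber would make p-values reflect spread within a chamber. Figures were drawn with matplotlib in Python.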

Additional observations from a re-analysis of the deposited data

Results flagged for a closer look

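The response to combined stress differed between the ovary and another organ, by limma's test of the difference, for 2965 genes against the sepal, 15812 against the anther (9012 after median-of-ratios rescaling) and 51 against the stigma (26 to 60 when a library was left out). Unless said otherwise, the values that follow are ovary response minus the other organ's response on the log2 scale, with limma adjusted p under 0.05.

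Genes of the ovary comparison itself were among them. GLYMA_14G063700 rose more than in the anther (1.46, SE 0.43). GLYMA_15G119200 fell more than in the sepal (-5.12, SE 0.50) and the anther (-3.35, SE 0.72). Its control level was at most 7.39 FPKM in the sepal and 7.10 FPKM in the anther. Those levels are too low for a fall as large as the ovary's on this scale. In the anther it was listed at 0 in every combined-stress library. GLYMA_08G068900 fell more than in the sepal (-3.97, SE 0.88) and the anther (-4.34, SE 0.97), where its control level was at most 2.37 and 1.21 FPKM. Against the stigma the difference did not pass the threshold for any of these genes (limma adjusted p = 0.724, 0.393 and 0.917, in the order above). Within the stigma, combined stress changed them by 8.04 (SE 0.34), -3.79 (SE 0.39) and -4.22 (SE 1.08).

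Against the sepal, the largest differences were 8.59 (SE 2.06) for GLYMA_09G230000, 4.87 (SE 1.08) for GLYMA_13G242600, -5.76 (SE 1.59) for ENSRNA050003721 and -5.23 (SE 0.55) for GLYMA_02G208300. The call for ENSRNA050003721 was lost in 3 of 9 alternatives. GLYMA_02G208300 fell in the ovary from 11.1 ± 1.01 to 1.99 ± 0.201 FPKM (SD, n = 3) and rose in the sepal from 1.27 ± 1.07 to 19.5 ± 6.94 FPKM.

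Against the anther, they were 7.64 (SE 2.08) for ENSRNA050002080, 6.50 (SE 2.13) for ENSRNA050002911, -5.95 (SE 0.32) for GLYMA_02G126000 and -5.83 (SE 2.09) for GLYMA_10G003900, whose call was lost in 5 of 9 alternatives. GLYMA_02G126000 was at 60.3, 112 and 66.4 FPKM in the anther under combined stress and at most 0.132 FPKM in these ovary groups.

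Against the stigma, they were 4.70 (SE 0.74) for GLYMA_20G204500, 2.13 (SE 0.42) for GLYMA_17G127600, -3.57 (SE 0.61) for GLYMA_03G040400 and -2.05 (SE 0.30) for GLYMA_20G185700. GLYMA_17G127600 was listed at 0 in all control and combined-stress ovary libraries, and its call was lost in 8 of 9 alternatives (limma adjusted p up to 0.356). The call for GLYMA_03G040400 was lost in 4 of 9. GLYMA_20G204500 was at 75.4, 44.1 and 24.2 FPKM in control stigmas and at most 0.0703 FPKM there under combined stress, against 0.427, 1.45 and 0.350 FPKM in control ovaries. GLYMA_20G185700 rose in the stigma from 1.31, 1.11 and 1.26 to 10.7, 10.9 and 7.99 FPKM and was at 2.42, 2.56 and 2.03 against 3.20, 2.86 and 2.61 FPKM in the ovary.

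Of these 12 genes named by organ differences, 6 had a group of libraries in which some stood under 0.001 FPKM and others at 1 FPKM or more, namely GLYMA_09G230000, GLYMA_13G242600, GLYMA_10G003900 and the 3 ENSRNA identifiers. Their differences rest on values listed at or near 0. Low ovary values also enter for others of the 12. GLYMA_17G127600, GLYMA_02G126000 and GLYMA_03G040400 were at most 0.538 FPKM in these ovary groups, so their differences are largely the other organ's change. GLYMA_20G204500 ended near 0 in ovary and stigma, from at most 1.45 FPKM in control ovaries.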

How the results depend on the processing

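Under 15 alternatives the genes called in the ovary numbered 6960 to 9371, with 2561 to 4825 higher and 4388 to 5651 lower, and the replicate block gave 3384 and 5144. The 4 genes named for combined stress against control kept their direction and their call in all 15. Same-numbered libraries of the 2 groups deviated from their group means with correlations of -0.027, 0.026 and 0.083. Of the 9154 calls, 7140 were shared without combined replicate 1, 7074 without replicate 2 and 6844 without replicate 3. The interaction called 5 to 10 genes when a replicate was left out, with 8 without control replicate 1 and 10 without combined replicate 1. The difference from the anther fell to 9012 genes after median-of-ratios rescaling, with 4597 above 0 and 4415 below it in place of 2114 and 13698. The difference from the stigma called 29 genes with a pseudocount of 0.1 and 29 with the replicate block, and 26 to 60 when a replicate was left out, with 26 without control replicate 1 and 29 without control replicate 3 or combined replicate 2. The cause of these moves was not tested. Counts of changes beyond 3 on the log2 scale moved with the pseudocount, to 78 higher and 196 lower at 0.1, where falls outnumbered rises, and to 26 and 5 at 5, and leaving out combined replicate 2 or control replicate 2 gave 48 higher or 40 lower. Anther-enriched genes called lower ranged from 31 (without control replicate 3) to 228 (6 libraries alone), and stigma-enriched ones from 157 to 180. Among genes named by organ differences, the call was lost for GLYMA_17G127600 in 8 of 9 alternatives, GLYMA_10G003900 in 5, GLYMA_03G040400 in 4 and ENSRNA050003721 in 3. Absolute depth is unknown, so no counting error is given for low values.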

Other observations

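In the ovary 10 genes were listed at 0 in all 3 control libraries and stood at 1 FPKM or more in all 3 combined-stress libraries, and 7 of them were called. Another 12 went the other way, of which 10 were called. Of the former, 3 stood at 1 FPKM or more in every heat library, and 2 were listed at 0 in every water deficit library. ENSRNA identifiers made up 2 of those 10. Both sets were chosen by the values that the call tests, and of all genes tested 11% were called higher and 16.5% lower. Of 372 tested ENSRNA identifiers, 5 were higher and 1 lower, where 11% and 16.5% of all genes tested were, with a median log2 fold change of 0.19, against -0.03 for the GLYMA_ identifiers. Combined replicate 3 was the lowest of its group for 51.7% of the genes called lower and the highest for 39.7% of those called higher.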
